A study of Mus musculus with 10 samples.

Results

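The receptors for sphingosine 1-phosphate (S1P) and the enzymes that make and remove it were read in the mouse brain 24 h after an experimental stroke. The set holds 9 of the 18193 genes measured: the 5 receptor genes S1pr1 to S1pr5, and 4 enzyme genes, Sphk1, Sphk2, Sgpl1 and Sgpp1. They were found as the probe sets whose annotation gave a member's symbol and no other. There were 17 such probe sets among 45101, and the brightest probe set of each gene, by its mean on the 10 arrays, stands for the gene.

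The study compared stroke with sham surgery in Hsp72-overexpressing and wild-type male mice. Each array measured total RNA of a hemisphere, the ischemic side after middle cerebral artery occlusion (MCAO, which blocks the main artery of the lateral forebrain) or the same side after sham surgery. The groups were Hsp72Tg mice after MCAO (n = 3), WT mice after MCAO (n = 3), Hsp72Tg mice after sham surgery (n = 2) and WT mice after sham surgery (n = 2). Hsp72Tg mice overexpress Hsp72, an inducible chaperone that helps other proteins to fold. The sources used here do not give the promoter of the transgene, the strain, the age or the length of the occlusion. The labels number the samples of a group without saying how many mice stand behind each, so p-values measure the spread between these samples.

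S1P is a signalling lipid made when a sphingosine kinase adds phosphate to sphingosine. It acts through G protein-coupled receptors on endothelial cells, immune cells and brain cells, and among its known actions are the control of vessel barriers and the exit of lymphocytes from lymphoid organs. A lyase cleaves it irreversibly and phosphatases turn it back into sphingosine. Fingolimod, a drug for multiple sclerosis, acts on several of the receptors after it has been phosphorylated in the body.

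All values are log2 RMA expression values, where a difference of 1 is a doubling, and levels are set against each other only within a probe set. Array medians lay between 6.67 and 6.73. The mean level of the 7 neuron markers, read to check the labelled tissue, lay between 12.05 and 12.48 on the 10 arrays, and without background flags no call of presence was made. On a first principal component with 50.3% of the variance, 5 MCAO arrays had scores of 11.7 to 32.3 and the sham arrays -23.7 to -20.7. Hsp72Tg MCAO 1 scored -12.9 and so stood closer to the sham arrays. WT sham 1 had a mean level of 8.95 for the cerebellar markers, against 6.28 to 6.50 on the other arrays. Hspa1b, which encodes Hsp72, ran from 12.05 to 13.96 in Hsp72Tg MCAO, from 11.85 to 12.84 in WT MCAO, from 9.12 to 9.15 in Hsp72Tg sham and from 9.38 to 9.48 in WT sham. For Hspa1b the Hsp72Tg sham arrays thus lay slightly below the WT sham arrays. For Hspa1a, which also encodes Hsp72, they overlapped, at 8.28 to 8.53 in Hsp72Tg sham and 8.45 to 8.54 in WT sham. The sources used here do not say which sequence the transgene carries, so these probe sets do not check the genotype labels.

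Of the 9 genes, S1pr3 alone passed the test for MCAO over both genotypes, at an adjusted p under 0.05 across all genes, and it was higher after MCAO. In that comparison 1.06% of all genes passed as higher and 0.407% as lower. At an unadjusted p under 0.05, S1pr3, Sphk1 and Sgpl1 were higher, 3 of 9 against 8.3% of all genes, and 0 of 9 were lower, against 10.8% of all genes. The same 3 genes had all 6 MCAO arrays above all 4 sham arrays, which held for 3.19% of all genes. The median change was 0.02 over the 9 genes and -0.026 over all genes. The median of the 9 genes thus lay near that of all genes.

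**Figure D1:**
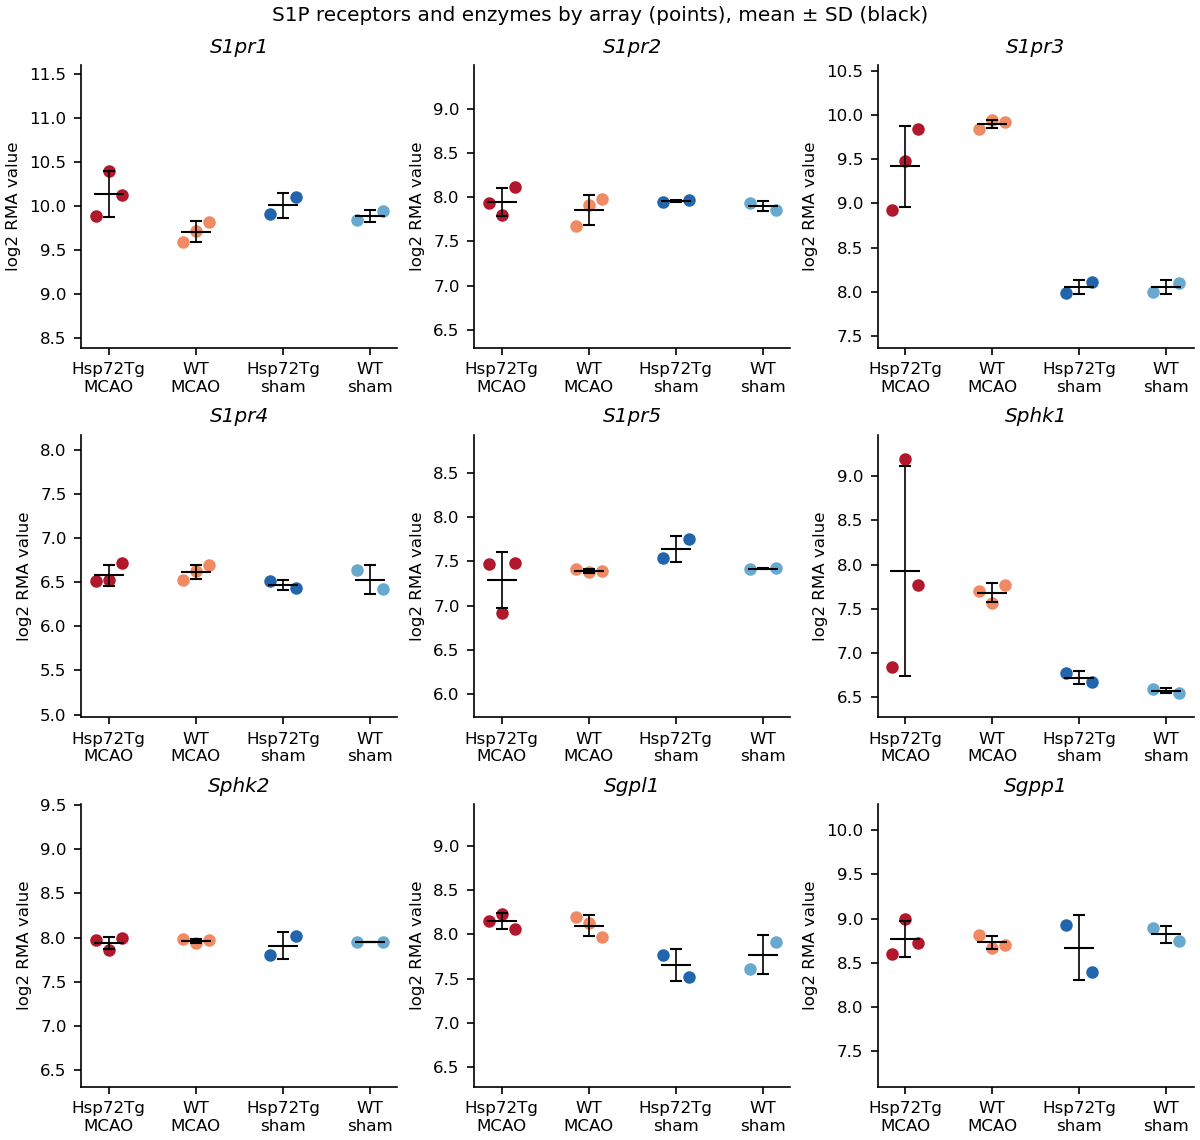
Log2 RMA expression value of each of the 9 genes on each of the 10 arrays (vertical axes, each panel with its own level but the same span), with points for arrays, black lines for the group mean ± SD and the groups from left to right Hsp72Tg MCAO, WT MCAO, Hsp72Tg sham and WT sham. The MCAO points of S1pr3, Sphk1 and Sgpl1 all lie above the sham points, and Sphk1 of Hsp72Tg MCAO spans 6.84 to 9.19.

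S1pr3 is a receptor that couples to Gi, Gq and G12/13 proteins and is known from vascular smooth muscle, endothelium and astrocytes. The gene lies on chromosome 13 at chr13:51408618-51422797 (GRCm38.p6, plus strand). It had values of 8.93, 9.48 and 9.84 in Hsp72Tg MCAO, against 7.99 and 8.11 in Hsp72Tg sham. In WT MCAO it had 9.84, 9.94 and 9.92, against 8.0 and 8.10 in WT sham. No MCAO array overlapped a sham array in either genotype. In this probe set, which stands for the gene, the 3 WT MCAO arrays lay much closer together than the 3 Hsp72Tg MCAO arrays. In its probe set 1460661_at they lay further apart, with an SD of 0.61 in WT MCAO against 0.40 in Hsp72Tg MCAO.

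Over both genotypes S1pr3 rose by a log2 value of 1.61 (SE 0.15, 95% interval 1.28 to 1.94), a 3.06-fold higher value, with an adjusted p of 0.00343 from limma. By absolute change it ranked 77 among 18193 genes. In Hsp72Tg the difference was 1.37 (SE 0.21), with an adjusted p of 0.173, and in WT it was 1.85 (SE 0.21), with an adjusted p of 0.0258. The call in WT depended on the arrays and the fit, while the change was 1.80 to 1.90 whichever array was left out. Without any 1 of the 3 WT MCAO arrays the adjusted p from limma was 0.144 to 0.217. Without any 1 of the 3 Hsp72Tg MCAO arrays, which enter only the shared spread, it was 6.76e-05 to 0.0191. The gene also passed with the WT arrays by themselves (SE 0.08, adjusted p 9.01e-05) and with array weights (adjusted p 0.00013). These fits called 955 and 1358 genes in WT, and leaving out Hsp72Tg MCAO 1 called 463, against 10 in the main fit. Leaving out Hsp72Tg MCAO 1 raised the count of genes that passed in Hsp72Tg from 4 to 1181. S1pr3 was then among them, at 1.62 with an adjusted p of 0.000185. Over both genotypes it passed without any 1 array, at 1.51 to 1.73. In hemisphere RNA, a change in how many cells of a type are present and a change in RNA per cell cannot be told apart.

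The share of all genes that passed as higher was 0.0495% in WT, where S1pr3 was the 1 member of 9 to pass, and 0.0165% in Hsp72Tg, where none of the 9 passed. At an unadjusted p under 0.05, 3 of the 9 were higher in Hsp72Tg (S1pr3, Sphk1 and Sgpl1), against 4.73% of all genes. In WT it was 2 of the 9 (S1pr3 and Sgpl1), against 5.71%. S1pr3, Sphk1 and Sgpl1 had MCAO arrays wholly above sham arrays in each genotype, 3 of 9 against 9.05% of all genes in Hsp72Tg and 16.4% in WT. Arrays lay wholly below sham for S1pr5 in Hsp72Tg, 1 of 9 against 12.8% of all genes, and for S1pr1 in WT, 1 of 9 against 22.5%. With 3 arrays against 2, lying apart was common among all genes.

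S1pr3 is read by 3 probe sets, and they did not give the same size of change. In a test of all 34945 named probe sets, the probe set 1437173_at rose by 1.18 (SE 0.13), with an adjusted p of 0.00745. It had 7.47, 7.43 and 7.97 in Hsp72Tg MCAO, 7.74, 8.16 and 8.10 in WT MCAO, 6.54 and 6.78 in Hsp72Tg sham, and 6.67 and 6.52 in WT sham. Its MCAO and sham arrays did not overlap. The probe set 1460661_at differed by 0.64 (SE 0.22), with an adjusted p of 0.183. It had 6.64, 6.45 and 7.21 in Hsp72Tg MCAO, 6.04, 6.93 and 7.20 in WT MCAO, 6.05 and 6.24 in Hsp72Tg sham, and 6.13 and 5.99 in WT sham. There WT MCAO 1 lay among the sham arrays.

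**Figure D2:**
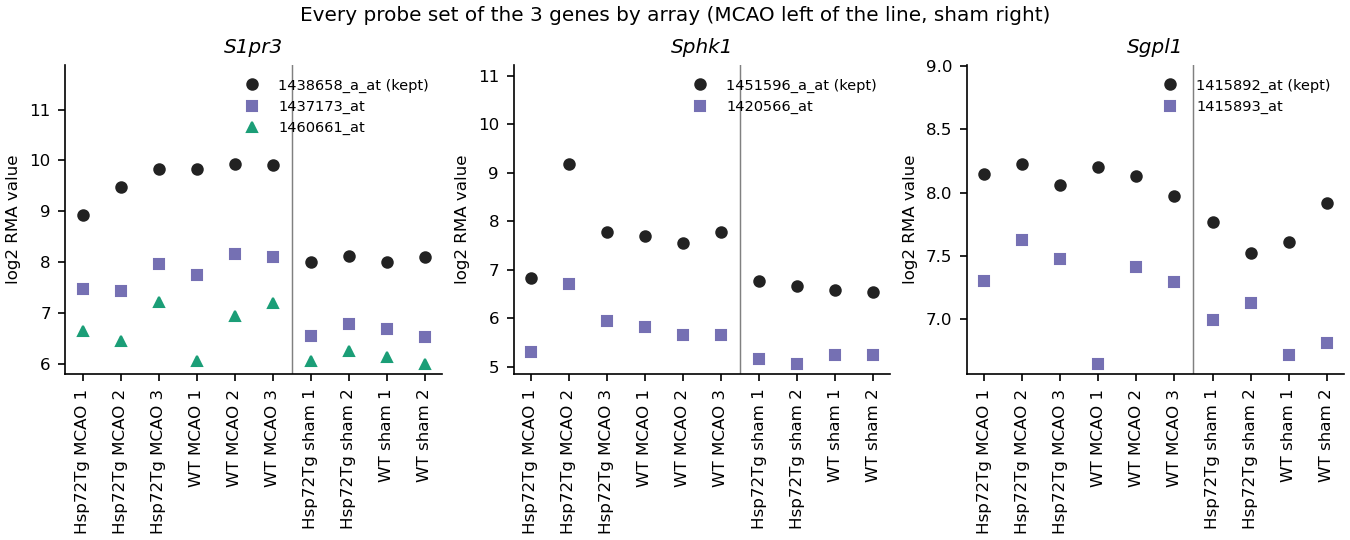
Log2 RMA expression value (vertical axes) on each of the 10 arrays (horizontal axes, Hsp72Tg MCAO, WT MCAO, Hsp72Tg sham and WT sham from left to right) for every probe set of S1pr3, Sphk1 and Sgpl1, 1 symbol a probe set and the kept one as black circles. For S1pr3, 2 of 3 probe sets have all MCAO arrays above all sham arrays, with changes of 1.61 and 1.18.

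The promoter windows of the 3 genes whose MCAO arrays lay above sham are shown, since these are the members with a possible response in both genotypes. They are RefSeq windows of GRCm38.p6, each from 250 bases before the start site to 50 bases after it, read 5′ to 3′ on the gene's strand. Sphk1 has 5 windows, and the 1 shown was chosen after its motif matches were seen. The windows are chr13:51408368-51408667 (plus strand) for S1pr3, chr11:116531587-116531886 (plus strand) for Sphk1 and chr10:61147635-61147934 (minus strand) for Sgpl1. Capitals mark letters that match a searched motif on either strand.
S1pr3: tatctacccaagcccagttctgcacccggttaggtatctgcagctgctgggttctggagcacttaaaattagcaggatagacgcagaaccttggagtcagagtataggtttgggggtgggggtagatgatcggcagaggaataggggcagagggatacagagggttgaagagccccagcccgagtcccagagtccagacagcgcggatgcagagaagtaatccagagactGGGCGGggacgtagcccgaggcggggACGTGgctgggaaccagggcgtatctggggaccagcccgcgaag
Sphk1: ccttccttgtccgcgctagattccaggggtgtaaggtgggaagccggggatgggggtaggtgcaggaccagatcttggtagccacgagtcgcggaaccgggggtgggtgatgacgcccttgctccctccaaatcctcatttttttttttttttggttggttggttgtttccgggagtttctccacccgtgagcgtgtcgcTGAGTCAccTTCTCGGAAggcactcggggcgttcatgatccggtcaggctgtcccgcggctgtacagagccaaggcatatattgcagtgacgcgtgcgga
Sgpl1: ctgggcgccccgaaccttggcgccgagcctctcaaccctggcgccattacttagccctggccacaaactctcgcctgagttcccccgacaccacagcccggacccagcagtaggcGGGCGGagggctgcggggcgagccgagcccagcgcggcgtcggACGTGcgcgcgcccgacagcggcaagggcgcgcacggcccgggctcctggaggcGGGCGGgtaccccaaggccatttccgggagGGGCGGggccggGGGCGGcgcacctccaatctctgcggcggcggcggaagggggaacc

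The motifs searched on both strands were the AP-1 letters TGANTCA, the STAT letters TTCNNNGAA, the heat shock letters GAANNTTC, the cyclic AMP response letters TGACGTCA, the hypoxia response core ACGTG, the GC box GGGCGG and the TATA box TATAAA. The S1pr3 window held 1 GC box and 1 ACGTG, and the Sgpl1 window held 4 GC boxes and 1 ACGTG. GC boxes also stood in windows of S1pr2, S1pr5 and Sphk2, and ACGTG in a window of Sphk2 and in another 2 windows of Sphk1. GC boxes stood in 35.7% of all 32851 windows and ACGTG in 19.6%. The Sphk1 window shown held TGAGTCA and TTCTCGGAA, and they also stand in a second Sphk1 window that overlaps it. The AP-1 letters stood in 7.81% of all windows and the STAT letters in 8.3%. The heat shock letters, in 7.86% of all windows, stood in 0 of the 13 windows of the 8 members that had any. The cyclic AMP response letters, in 1.79% of all windows, stood in windows of S1pr2 and Sphk2, and TATAAA, in 13.6%, in another Sphk1 window. No 2 motifs shared bases in the windows shown, and a match of letters is a description and no evidence of binding.

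Genes with the profile most like that of S1pr3 were ranked by the root mean square difference between log2 profiles over the 10 arrays, each profile centred on its own mean. The nearest was Slc14a1, a urea transporter, at 0.10. It was followed by Tnfrsf1a, a receptor of tumour necrosis factor, and Aspg, an asparaginase, each at 0.17. Msn, which encodes moesin and links membrane proteins to actin, stood at 0.19, and Pdlim4, which encodes an actin-associated protein, at 0.20. Their changes over both genotypes lay between 1.35 (SE 0.16) for Tnfrsf1a and 1.82 (SE 0.23) for Msn. In each of the 5 the lowest MCAO array was Hsp72Tg MCAO 1, as in the kept S1pr3 probe set. That and the similar changes follow from how the 5 were picked, by likeness on these same arrays. The lowest MCAO array was Hsp72Tg MCAO 2 (7.43) for the S1pr3 probe set 1437173_at and WT MCAO 1 (6.04) for 1460661_at.

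S1pr3 and the reactive astrocyte markers were both higher after MCAO in each genotype. The kept S1pr3 probe set and the mean of the markers were both lowest among MCAO arrays on Hsp72Tg MCAO 1, at 8.93 and 9.43. The markers were highest on Hsp72Tg MCAO 3, at 11.21. The kept S1pr3 probe set was highest on WT MCAO 2, at 9.94, little above WT MCAO 3, at 9.92. Its probe set 1437173_at was also highest on WT MCAO 2, at 8.16. The probe set 1460661_at was highest on Hsp72Tg MCAO 3, at 7.21, with 7.20 on WT MCAO 3. The mean of the 6 markers ran from 9.43 to 11.21 in Hsp72Tg MCAO and from 10.71 to 10.97 in WT MCAO. It ran from 7.80 to 7.97 in Hsp72Tg sham and from 7.71 to 7.77 in WT sham. All 6 rose over both genotypes, with the largest changes for Lcn2, an iron-binding secreted protein, at 4.38 (SE 0.84), and Cd44, a hyaluronan receptor, at 3.35 (SE 0.32). Of the 6 markers of astrocytes in general 0 passed, with mean levels of 11.72 to 12.02 in Hsp72Tg MCAO, 11.80 to 11.82 in WT MCAO, 11.75 to 11.77 in Hsp72Tg sham and 11.80 to 11.81 in WT sham. Endothelial markers had 2 of 7 that rose, among them Pecam1, a junction protein, at 1.0 (SE 0.18). The differences of the 7 ran from -0.79 to 1.13, with 5 above 0 and 2 below. The largest was that of Cdh5, another junction protein, with an adjusted p of 0.0557. Their mean level ran from 8.14 to 8.80 in Hsp72Tg MCAO, from 8.33 to 8.68 in WT MCAO, from 8.05 to 8.28 in Hsp72Tg sham and from 7.92 to 8.07 in WT sham. Of the markers of pericytes and smooth muscle, 0 of 7 passed. The part of these cells in the rise of S1pr3 was not tested.

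**Figure D3:**
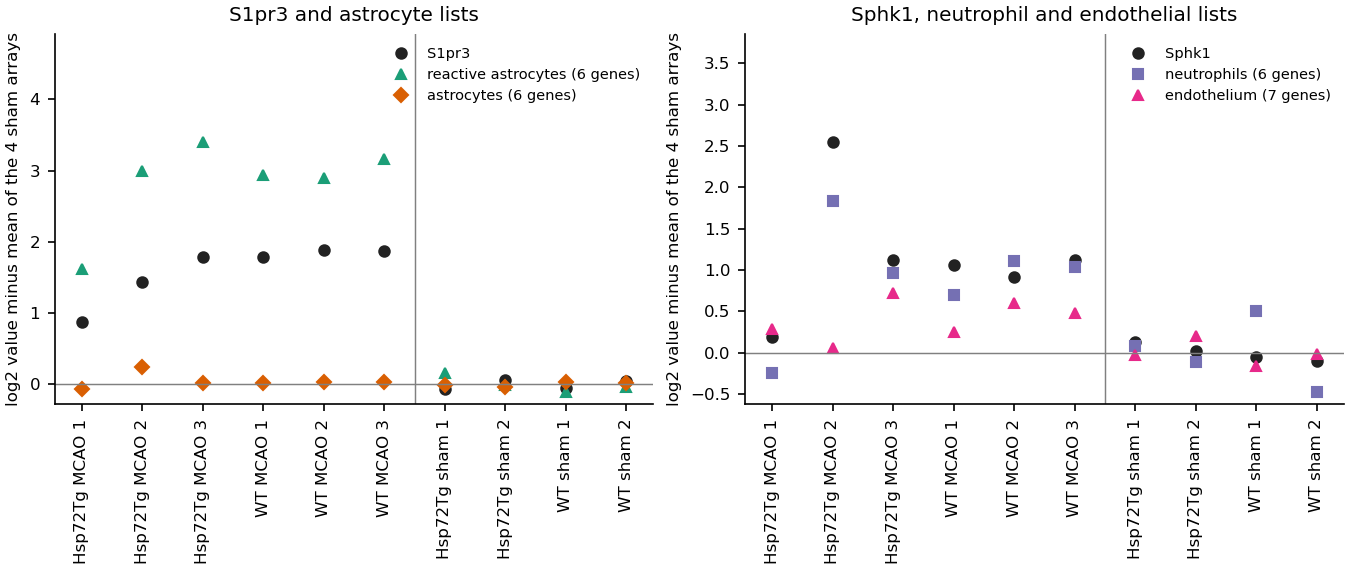
Log2 values less the mean over the 4 sham arrays (vertical axes) on each of the 10 arrays (horizontal axes, Hsp72Tg MCAO, WT MCAO, Hsp72Tg sham and WT sham from left to right). Points are S1pr3 with the astrocyte lists (left) and Sphk1 with the neutrophil and endothelial lists (right), each list as the mean level of its genes. On Hsp72Tg MCAO 1 S1pr3, Sphk1 and the reactive astrocyte markers have their lowest MCAO values.

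S1pr1 couples to Gi, keeps vessel barriers tight and guides lymphocytes out of lymphoid organs. It had 9.89, 10.40 and 10.13 in Hsp72Tg MCAO, 9.59, 9.72 and 9.82 in WT MCAO, 9.91 and 10.10 in Hsp72Tg sham, and 9.84 and 9.94 in WT sham. The 3 WT MCAO arrays lay just below the WT sham arrays, and the Hsp72Tg MCAO arrays reached both below and above the Hsp72Tg sham arrays. The change over both genotypes was -0.02 (95% interval -0.26 to 0.21). In Hsp72Tg it was 0.13 and in WT -0.18, and neither passed.

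S1pr5 is known from oligodendrocytes and natural killer cells. It had 7.47, 6.92 and 7.48 in Hsp72Tg MCAO, 7.42, 7.38 and 7.39 in WT MCAO, 7.54 and 7.75 in Hsp72Tg sham, and 7.41 and 7.43 in WT sham. The difference in Hsp72Tg was -0.36 (SE 0.16), with an adjusted p of 0.417, and in WT it was -0.02. Without Hsp72Tg MCAO 2, the lowest array, the difference in Hsp72Tg was -0.17. Oligodendrocyte markers were measured beside it: 1 of 7 fell over both genotypes, Mog, a myelin surface protein, at -0.58 (SE 0.12). Mobp, a protein of compact myelin, differed by 0.29 (SE 0.09, adjusted p 0.13), and of the 7 differences 3 lay above 0 and 4 below. Their mean level was 11.52 to 11.78 in Hsp72Tg MCAO, 11.47 to 11.60 in WT MCAO, 11.74 to 11.75 in Hsp72Tg sham and 11.58 to 11.64 in WT sham, and their part in the S1pr5 values was not tested.

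S1pr2, which couples mainly to G12/13 proteins, and S1pr4, a receptor of blood cells, spanned little. S1pr2 lay between 7.80 and 8.12 in Hsp72Tg MCAO, 7.67 and 7.98 in WT MCAO, 7.95 and 7.97 in Hsp72Tg sham, and 7.86 and 7.94 in WT sham. Its change over both genotypes was -0.03 (95% interval -0.22 to 0.17). S1pr4 lay between 6.51 and 6.72 in Hsp72Tg MCAO, 6.53 and 6.70 in WT MCAO, 6.43 and 6.51 in Hsp72Tg sham, and 6.42 and 6.64 in WT sham. Its change was 0.10 (95% interval -0.07 to 0.27). The upper ends of both intervals lie below the lower end of that for S1pr3. Lymphocyte markers had mean levels of 5.85 to 5.98 in Hsp72Tg MCAO, 5.83 to 5.92 in WT MCAO, 5.92 to 5.98 in Hsp72Tg sham and 5.98 to 6.05 in WT sham, and 0 of 8 passed.

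Among the enzymes, Sphk1 had the largest difference. It encodes a sphingosine kinase that growth factors and cytokines induce and draw to the plasma membrane. It had 6.84, 9.19 and 7.77 in Hsp72Tg MCAO, 7.70, 7.56 and 7.77 in WT MCAO, 6.77 and 6.67 in Hsp72Tg sham, and 6.59 and 6.55 in WT sham. All MCAO arrays lay above all sham arrays, Hsp72Tg MCAO 1 by little, and Hsp72Tg MCAO 2 stood far above the rest.

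The change of Sphk1 over both genotypes was 1.16 (SE 0.35, 95% interval 0.37 to 1.95), 2.24-fold, with an adjusted p of 0.121 from limma, so it did not pass. It was 1.21 (SE 0.50) in Hsp72Tg and 1.11 (SE 0.50) in WT. In Hsp72Tg it was 1.76, with an adjusted p of 0.017, without Hsp72Tg MCAO 1, and 0.58, with an adjusted p of 0.625, without Hsp72Tg MCAO 2. Of all genes, 1181 and 0 passed in Hsp72Tg without these arrays, against 4 in the main fit. The call over both genotypes turned when either of 2 arrays was left out. The change was 1.44 with an adjusted p of 0.00413 without Hsp72Tg MCAO 1, and 0.85 with an adjusted p of 0.0493 without Hsp72Tg MCAO 2. Over both genotypes 2251 and 222 genes passed without these arrays, against 266 in the main fit. A fit with array weights called Sphk1 over both genotypes at 1.14 (adjusted p 0.0283) and in WT at 1.09 (adjusted p 0.0299). That fit called 1116 and 1358 genes there, against 266 and 10 in the main fit. The WT arrays by themselves also called Sphk1, at 1.11 (SE 0.09) with an adjusted p of 0.00108, among 955 genes. The Hsp72Tg arrays by themselves gave 1.21 (SE 0.63), with an adjusted p of 0.775. In the main fit all groups share the estimate of the spread. The SD of Sphk1 was 1.19 in Hsp72Tg MCAO and 0.11 in WT MCAO.

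The other probe set of Sphk1, 1420566_at, had 5.31, 6.70 and 5.94 in Hsp72Tg MCAO, 5.82, 5.66 and 5.65 in WT MCAO, 5.16 and 5.06 in Hsp72Tg sham, and 5.25 and 5.25 in WT sham. Its difference of 0.66 (SE 0.22) had an adjusted p of 0.161. Hsp72Tg MCAO 2 was again the highest array by far. The neutrophil markers also had their highest mean level, 7.94, on Hsp72Tg MCAO 2. Their mean level ran from 5.86 to 7.94 in Hsp72Tg MCAO and from 6.80 to 7.21 in WT MCAO. It was 5.99 to 6.18 in Hsp72Tg sham and 5.63 to 6.60 in WT sham, and 0 of 6 passed. The markers did not change alike over both genotypes. S100a8 and S100a9 differed by 2.38 (SE 0.78) and 2.49 (SE 0.78), but Mpo, Camp, Cxcr2 and Ngp by 0.04 to 0.27. The part of neutrophils in the Sphk1 values was not tested.

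Sgpl1 encodes the S1P lyase of the endoplasmic reticulum, which removes S1P for good. It had 8.15, 8.23 and 8.06 in Hsp72Tg MCAO, 8.20, 8.13 and 7.97 in WT MCAO, 7.77 and 7.52 in Hsp72Tg sham, and 7.61 and 7.92 in WT sham. The lowest MCAO value stood just above the highest sham value, both in WT. The difference over both genotypes was 0.42 (SE 0.09, 95% interval 0.21 to 0.62), 1.33-fold, with an adjusted p of 0.0587 from limma. It was 0.50 (SE 0.13) in Hsp72Tg and 0.33 (SE 0.13) in WT. In WT it was 0.18 without WT sham 1, the array with the high cerebellar markers, and 0.49 without WT sham 2. The gene passed over both genotypes with array weights, at 0.39 with an adjusted p of 0.048, and without Hsp72Tg MCAO 1, at 0.42 with an adjusted p of 0.0254. Those fits called 1116 and 2251 genes over both genotypes, against 266 in the main fit. The other probe set, 1415893_at, differed by 0.38 (SE 0.14), with an adjusted p of 0.218, and its MCAO and sham arrays overlapped.

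Sphk2, the sphingosine kinase found largely in the nucleus and at organelles, did not pass. It lay between 7.86 and 7.99 in Hsp72Tg MCAO, 7.94 and 7.98 in WT MCAO, 7.80 and 8.02 in Hsp72Tg sham, and at 7.95 on both WT sham arrays. Its change over both genotypes was 0.02, with a 95% interval of -0.13 to 0.17, which does not reach the estimate for Sgpl1 or Sphk1. Sgpp1, an S1P phosphatase of the endoplasmic reticulum, lay between 8.60 and 8.99 in Hsp72Tg MCAO, 8.67 and 8.81 in WT MCAO, 8.40 and 8.93 in Hsp72Tg sham, and 8.75 and 8.89 in WT sham. Its change was 0.01 (95% interval -0.25 to 0.27). The other probe sets of these genes and of S1pr2 differed by -0.09 to 0.08, and none passed.

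Each of the 9 genes was also tested by itself over both genotypes, with an exact permutation test that exchanged MCAO and sham labels within genotype. The smallest two-sided p this design allows is 0.01. The unadjusted p was 0.01 for S1pr3, 0.01 for Sgpl1 and 0.04 for Sphk1. For the other 6 genes it ran from 0.16 for S1pr5 to 0.97 for Sgpp1.

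Between the genotypes, 0 of the 9 genes passed in any comparison, and 0% of all genes passed in each of them. After MCAO, 2 of the 9 had an unadjusted p under 0.05, against 2.68% of all genes (487 genes), and the same 2 had groups that did not overlap, against 7.44%. S1pr1 was 0.43 higher in Hsp72Tg (SE 0.13, 95% interval 0.14 to 0.72), with an adjusted p of 1, and S1pr3 differed by -0.48 (SE 0.19, 95% interval -0.90 to -0.06), with an adjusted p of 1. The S1pr3 difference was -0.24 without Hsp72Tg MCAO 1 and -0.69 without Hsp72Tg MCAO 3. In the kept S1pr3 probe set the highest Hsp72Tg MCAO and the lowest WT MCAO array both read 9.84 as rounded. In its other probe sets the difference was -0.37 (SE 0.16) for 1437173_at and 0.04 (SE 0.28) for 1460661_at. In both of these the MCAO arrays of the genotypes overlapped. The S1pr1 difference ran from 0.30 without Hsp72Tg MCAO 2 to 0.56 without Hsp72Tg MCAO 1. On Hsp72Tg MCAO 2, where S1pr1 was highest, the astrocyte, neutrophil and oligodendrocyte markers had their highest mean levels, 12.02, 7.94 and 11.78. There the microglia markers had their lowest, 7.87, and the endothelial markers their lowest MCAO level, 8.14. That array also had the highest score on the first principal component, 32.3. The part of these cells in the S1pr1 values was not tested.

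After sham surgery 0 of the 9 had an unadjusted p under 0.05, against 1.56% of all genes (283 genes). S1pr2, S1pr5 and Sphk1 had both Hsp72Tg arrays above both WT arrays, 3 of 9 against 12.8% of all genes, with differences of 0.06, 0.23 and 0.15. In 0 of 9 did they lie below, against 14.2%. The other Sphk1 probe set, 1420566_at, went the opposite way, with both Hsp72Tg arrays below both WT arrays and a difference of -0.14. In the other S1pr2 probe set, 1428176_at, the sham arrays of the genotypes overlapped, with a difference of -0.05. S1pr3 differed by 0.00 (95% interval -0.51 to 0.51). The difference of the MCAO changes, Hsp72Tg minus WT, was -0.48 for S1pr3 (SE 0.29, 95% interval -1.14 to 0.18). Without Hsp72Tg MCAO 1 it was -0.23, and without Hsp72Tg MCAO 3 it was -0.69. It was 0.31 for S1pr1, with 0.18 without Hsp72Tg MCAO 2, and -0.33 for S1pr5, with -0.15 without Hsp72Tg MCAO 2. For Sphk1 it was 0.10 (95% interval -1.48 to 1.68), with 0.65 without Hsp72Tg MCAO 1 and -0.53 without Hsp72Tg MCAO 2. At an unadjusted p under 0.05 there were 0 of 9, against 1.75% of all genes (319 genes). So although S1pr3 passed in WT and not in Hsp72Tg, its response was not shown to differ between them. The interval for Sphk1, whose 3 Hsp72Tg MCAO arrays lay far apart, reaches well past 1 in either direction.

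**Figure D4:**
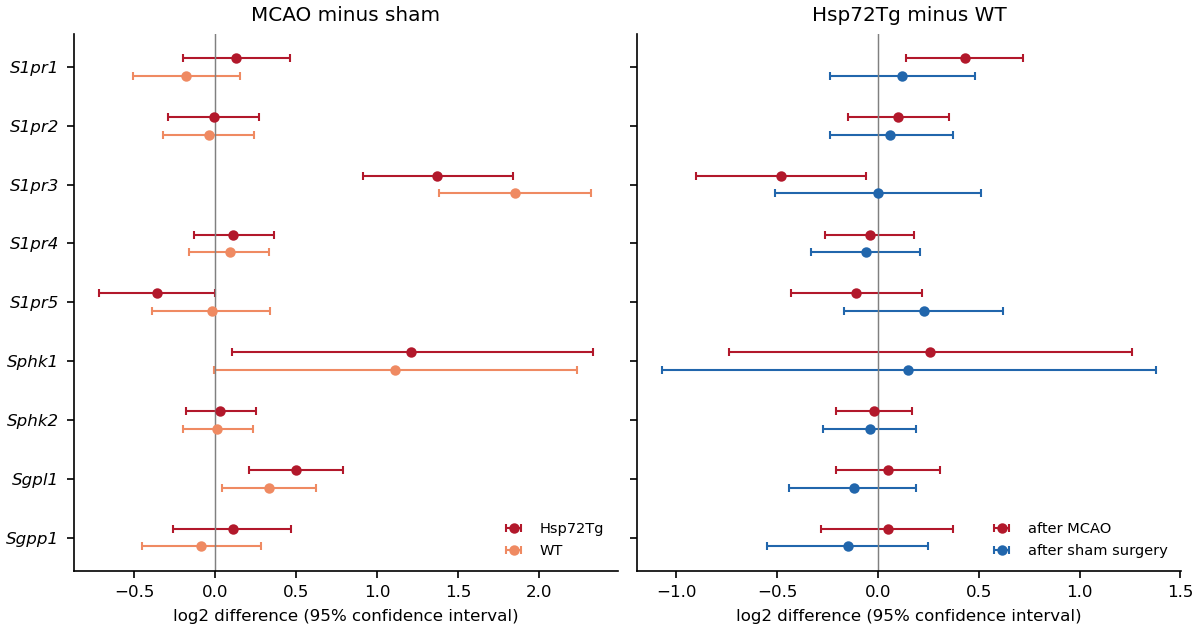
Differences in log2 RMA values for the 9 genes (vertical axis) with 95% confidence intervals (horizontal bars), for MCAO minus sham in Hsp72Tg and in WT (left) and for Hsp72Tg minus WT after MCAO and after sham surgery (right). S1pr3 has the largest MCAO differences of the 9 genes, 1.37 in Hsp72Tg and 1.85 in WT, and intervals of the genotype differences exclude 0 only for S1pr1 and S1pr3, both after MCAO.

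Around the members, 3 lists of neighbouring genes were read for MCAO over both genotypes. Of 15 further genes that form, carry or break down S1P and its precursors, 1 rose and 0 fell. The riser was Acer2, a ceramidase of the Golgi that releases sphingosine from ceramide, at 1.48 (SE 0.23, adjusted p 0.0251). It ran from 8.50 to 9.31 in Hsp72Tg MCAO, from 8.72 to 9.01 in WT MCAO, from 7.15 to 7.90 in Hsp72Tg sham and from 6.78 to 7.73 in WT sham. Its MCAO and sham arrays did not overlap, and its changes in Hsp72Tg and WT were 1.32 and 1.64. Abca1, a lipid exporter, differed by 0.43 (SE 0.13, adjusted p 0.117). The list's median was 0.09, against -0.026 for all genes.

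Of 20 genes of ceramide and sphingomyelin metabolism, 0 passed, and the median was -0.02. Sgms2, a sphingomyelin synthase of the plasma membrane, differed by 0.92 (SE 0.27, adjusted p 0.118) and ran from 5.35 to 7.11 in Hsp72Tg MCAO, against 5.25 to 5.34 in Hsp72Tg sham. In WT MCAO it ran from 5.80 to 5.96, against 5.09 to 5.20 in WT sham. Smpd3, a neutral sphingomyelinase, differed by -0.37 (SE 0.18, adjusted p 0.297). Of 5 receptors for lysophosphatidic acid, a related lipid signal, 0 passed. Lpar6 differed by 0.16 and Lpar4 by -0.16, and the median was 0.02. Lpar2 and Lpar3 lay below the lower quartile of all values on each of the 10 arrays, and Lpar4 on 9 arrays. At such low values a change could be missed.

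**Figure D5:**
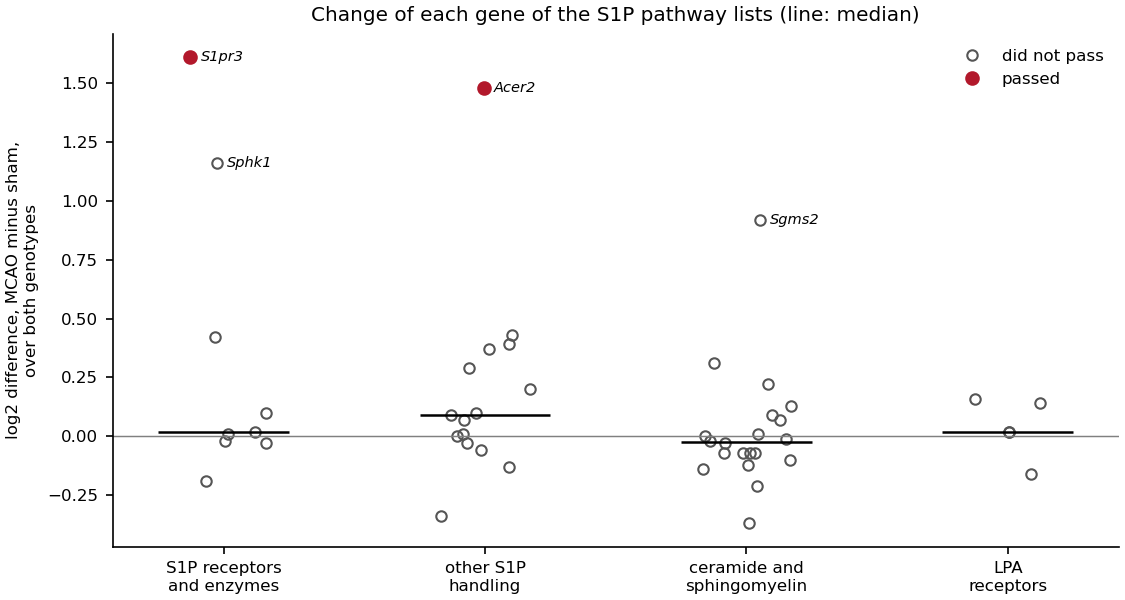
Change after MCAO over both genotypes (log2, MCAO minus sham) of the 9 members and of the genes measured in the 3 neighbouring lists, 1 point a gene, filled where it passed, with a line at each median. S1pr3 at 1.61 and Acer2 at 1.48 are the 2 genes shown that passed, and the medians of the neighbouring lists lie between -0.02 and 0.09.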

How the data were processed

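The values the authors deposited are log2 expression values for each probe set on each array. Per the submitters' processing notes the tool was RMA, which removes background, normalizes across arrays and sums up the probes of a probe set. The sources used here give neither its version nor its settings. Values ran from 3.49 to 14.7. Scanner files and background flags were not used, and the number of arrays limits the precision.

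Of 45101 probe sets, 34945 had 1 gene symbol, 932 had several, 9160 were unnamed and 64 were controls. RefSeq (GRCm38.p6) matched 34741 by Entrez identifier, and 0 symbols changed. Of a gene's probe sets, the one with the highest mean was kept, which gave 18193 genes. Limma 3.58.1 in R 4.3.3 fitted a mean per group over all 10 arrays (lmFit, contrasts.fit, eBayes), with 6 residual and 3.72 prior degrees of freedom. A gene passed when its two-sided p, adjusted over all genes by Benjamini-Hochberg, was under 0.05. Probe sets were tested over all named probe sets. Errors are SE of a contrast, and n = 6 MCAO and 4 sham arrays stand behind differences over both genotypes. The analysis was tested on simulated data.

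The members and all lists were chosen with earlier results of these data known. The named genes were the members, up to 4 genes of each pathway list that passed, otherwise those with the largest change up to 2, up to 2 per marker list, and the 5 nearest profiles to S1pr3. Older and newer symbols of the same gene stood on a list together, and 3 old symbols had no row of their own. The alternatives were quantile normalization, the replicate number as a block, trend and robust options, array weights, the mean over probe sets, a filter on dim probe sets, the arrays compared by themselves and leaving out each array. The sources used here give no scan date or batch. The result of 1 pathway list is not reported here.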

Additional observations from a re-analysis of the deposited data

How the results depend on the processing

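S1pr3 over both genotypes passed in all 16 alternatives. In WT it passed with quantile normalization (adjusted p 0.0486), trend and robust options (0.0096), array weights, the filter on dim probe sets (0.0204) and the WT arrays by themselves. It did not pass there with the replicate block (1.74, adjusted p 0.0729) or as a mean over probe sets (1.31, adjusted p 0.0897). The numbers were not taken to pair the samples, since deviations of same-numbered arrays correlated at -0.16 to 0.25. Arrays limit all of this, with 2 sham arrays per genotype, and the causes of the shifts below were not tested.

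The count of genes that passed for MCAO in WT was 10. It was 6 with quantile normalization, 6 with the mean over probe sets, 0 with the replicate block, 1358 with array weights, 955 with the WT arrays alone and 0 to 463 without any 1 array. In Hsp72Tg the count was 4, with 0 under the replicate block, 0 with the Hsp72Tg arrays alone and 0 to 1181 without any 1 array. Over both genotypes it was 266, with 19 under the replicate block, 1116 with array weights and 11 to 2251 without any 1 array. For the genotypes the counts were 0 to 2 for the difference of the MCAO changes, 0 to 5 after MCAO and 0 to 3 after sham surgery without any 1 array, and 3 after sham surgery with the sham arrays alone.

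Values near 0 changed sign. With array weights S1pr2 was 0.00 in WT, 0.03 in Hsp72Tg and 0.02 over both genotypes, and Sgpp1 was -0.01 over both. With quantile normalization Sphk2 was 0.00 in WT and 0.03 for genotype after MCAO, S1pr2 was 0.04 in Hsp72Tg, and S1pr3 was 0.00 for genotype after sham surgery. With the mean over probe sets S1pr2 was 0.07 in Hsp72Tg and 0.03 over both, Sgpp1 was -0.04 over both, and Sphk2 was -0.03 for the difference between the genotypes' changes. After sham surgery that mean gave genotype differences of 0.05 for S1pr3, 0.01 for Sphk2 and 0.09 for Sgpl1.

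Leaving out each array gave these ranges where a sign changed. For MCAO in WT, S1pr2 ran from -0.11 to 0.05 and S1pr4 from -0.02 to 0.20. In Hsp72Tg, S1pr2 ran from -0.09 to 0.07, Sphk2 from -0.08 to 0.14 and Sgpp1 from -0.16 to 0.37. Over both, S1pr1 ran from -0.09 to 0.04, S1pr2 from -0.07 to 0.02, Sphk2 from -0.03 to 0.08 and Sgpp1 from -0.12 to 0.14. In the difference between the genotypes' changes, S1pr2 ran from -0.06 to 0.11, S1pr4 from -0.09 to 0.14, Sphk1 from -0.53 to 0.65, Sphk2 from -0.09 to 0.13 and Sgpp1 from -0.07 to 0.46. For genotype after MCAO, S1pr4 ran from -0.11 to 0.00, S1pr5 from -0.20 to 0.08, Sphk1 from -0.37 to 0.80, Sphk2 from -0.05 to 0.02, Sgpl1 from -0.02 to 0.10 and Sgpp1 from -0.07 to 0.13. For genotype after sham surgery, S1pr3 ran from -0.06 to 0.06, S1pr4 from -0.17 to 0.05, Sphk2 from -0.15 to 0.07, Sgpl1 from -0.28 to 0.03 and Sgpp1 from -0.42 to 0.11.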
